A study of Arabidopsis thaliana with 12 samples.

Results

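COR27 (AT5G42900) and COR28 (AT4G33980), a pair of related cold-regulated genes of Arabidopsis thaliana, were followed through 12 RNA sequencing libraries of whole seedlings. They are 2 of the 24616 genes in the deposited expression table and were picked by their locus identifiers, with results of these libraries already known. Their levels in all 12 libraries were part of that choice, so they are given as a description and carry no test. Seedlings of the wild type Col and of the line cbfs-1 were grown for 14 days at 22 °C in long days on MS-based medium and then moved to 4 °C. They were sampled at 0 h, 3 h and 24 h, with 2 libraries in each of the 6 groups. The line cbfs-1 is named for the CBF genes, but the labels state neither its lesion nor its background. Seedlings kept at 22 °C for 3 h or 24 h were not analysed here, so at 3 h time in the cold and time of day cannot be told apart. At 24 h the nominal time of day is that of 0 h, but sampling hours are not in the labels. In bulk seedlings, fewer cells of a type and less RNA per cell cannot be told apart either.

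COR27 and COR28 encode small plant proteins with no familiar DNA-binding domain whose transcripts are known to cycle daily, with high levels later in the day. In Arabidopsis they are described as repressors of the clock genes PRR5 and TOC1, as inhibitors of freezing tolerance, and as substrates and partners of the COP1 and SPA light signalling ligase and of HY5. The morning factors CCA1 and LHY, and their relatives of the RVE family, bind the evening element in many evening-phased promoters. The CBF proteins bind the CRT/DRE element of many cold-induced genes.

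In the RefSeq annotation of assembly TAIR10.1, COR27 lies on chromosome 5 from base 17197641 to 17199910 on the minus strand and has 3 transcripts. COR28 lies on chromosome 4 from base 16282281 to 16285229, also on the minus strand, with 2 transcripts. The longest coding sequences measure 741 bases for COR27 and 699 bases for COR28. No gene of this annotation overlaps either locus, and the nearest gene lies 478 bases from COR27 and 233 bases from COR28. Transcripts outside the annotation were not looked for. The annotation names COR27 but lists COR28 only by its locus identifier. The 300 bases before the annotated start of COR28 are shown because the level of the gene differed so much between times. Capitals mark a CCA1 binding site, AAAAATCT. The evening element AAAATATCT and its core AATATCT were searched as well, all on both strands. The sequence runs 5′ to 3′ along the minus strand of TAIR10.1 at chr4:16285230-16285529 and comes from RefSeq.
COR28: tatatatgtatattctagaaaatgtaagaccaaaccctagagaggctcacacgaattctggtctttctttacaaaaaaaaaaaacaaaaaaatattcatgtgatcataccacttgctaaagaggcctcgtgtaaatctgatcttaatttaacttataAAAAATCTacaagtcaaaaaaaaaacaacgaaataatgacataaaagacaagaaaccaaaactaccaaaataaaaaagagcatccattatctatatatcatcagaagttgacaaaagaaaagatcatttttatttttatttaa

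The COR28 window holds 1 CCA1 binding site, which begins at position -143, counted from the annotated start, and no evening element or core. Among 27443 protein-coding nuclear genes, the CCA1 binding site was found in 7.94% of such 300-base windows, an evening element in 2.79% and the core in 11.8%. The COR28 window also lacks the G-box CACGTG (7.09% of genes) and the CRT/DRE core CCGAC (13.9% of genes).

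Further matches lie just downstream of the annotated starts, in a stretch of 200 bases chosen after the sequence had been seen. COR28 has an evening element at position 32, and COR27 has a core at position 10. COR28 has a further core at 57 on the opposite strand. The core was found in 16.5% of windows from 300 bases before to 200 after the start. A G-box follows at 81 in COR27 and at 97 in COR28. Short stretches of these regions are shown because the letters around the G-box are shared, with the named motif and any other match in capitals. They lie at chr5:17199881-17199910, chr4:16285179-16285208, chr5:17199813-17199842 and chr4:16285116-16285145, all on the minus strand.
COR27 core at 10: tgtgtttgaAATATCTaaaaccaaaaagtt
COR28 evening element at 32: gctccaaaaaAAAATATCTggctgatattt
COR27 G-box at 81: ggcaactttaccCACGTGtaaaagcgtcta
COR28 G-box at 97: gcaatactatgaCACGTGtaaaagcgacgc

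The G-box and the letters after it form a run of 14 bases, CACGTGtaaaagcg, that is the same in both genes. In windows of 500 bases (300 before to 200 after the start) this run was found in 2 of 27443 genes (0.00729%), which are COR27 and COR28. A second shared run of 13 bases, gatgacgtggcaa, begins at 61 in COR27 and at 76 in COR28 and was found in 12 genes (0.0437%). Both runs were sought by comparing these 2 windows, so COR27 and COR28 hold them by the way they were picked. How often other pairs of genes share runs of this length was not counted, so the counts do not show that the sharing is unusual. A G-box alone was present in 10.4% of the 500-base windows, an evening element in 3.92%, and both together in 0.441% (121 genes). COR28 is among these 121 genes. It also has 1 CCGAC, at 52 on the opposite strand, a motif found in 27.3% of the 500-base windows. The other annotated transcript starts lie 117 bases downstream in COR27 and 170 bases downstream in COR28, so these downstream matches lie between the alternative starts.

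The libraries held 16849042 to 22800552 reads recovered from the deposited values, and 3 reads, taken as the floor of detection, correspond to 2.46 to 3.28 normalized reads. Size factors ranged from 0.914 to 1.22. The seedling label was checked with 15 markers. Leaf markers were abundant, with RBCS1A, a Rubisco small subunit, at 239061 to 296539 normalized reads, and the root marker CASP1 of the endodermis stood at 245 to 618. The 5 flower and seed markers lay between 0 and 13.4. At 3 h the replicates 1 and 2 of each genotype stood apart for COR27, COR28 and many clock genes, so results at 3 h are also given without each of these libraries.

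COR27 was close to absent before cold and abundant after it. Wild type libraries at 0 h held 2 reads and 1 read, or 2.18 and 1.08 normalized reads in replicates 1 and 2, and cbfs-1 libraries held 1 and 4 reads, or 1.03 and 3.79 normalized reads. These values lie at or near the floor. At 3 h COR27 had 1518 and 326 normalized reads in wild type and 1673 and 402 in cbfs-1. At 24 h it had 2899 and 1530 normalized reads in wild type and 2480 and 1627 in cbfs-1. All libraries in the cold were above all libraries before cold, whereas replicate 1 was above replicate 2 in each of the 4 cold groups.

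Group means of COR27 in wild type were 1.63 ± 0.777 (SD, n = 2) at 0 h, 922 ± 843 at 3 h and, at 24 h, 2215 ± 968 normalized reads. The cbfs-1 means were 2.41 ± 1.95, 1037 ± 899 and 2054 ± 603. On the log2(value + 1) scale the level at 3 h exceeded that at 0 h by 8.10 ± 0.81 (SE) in wild type and by 8.04 ± 0.81 in cbfs-1. At 24 h the excess over 0 h was 9.68 in wild type and 9.33 in cbfs-1, with the same SE. In both genotypes the 24 h difference ranked 1st among the 20666 genes tested and the 3 h difference ranked 7th from the top. The counts at 0 h are so low that these values depend on the pseudocount of 1, and read ratios carry wide intervals: summed over libraries and scaled by depth, wild type had 512 times as many COR27 reads at 3 h as at 0 h (exact 95% interval 175 to 2486, counting error only). The corresponding ratio at 24 h was 1339 (458 to 6497). For cbfs-1 the ratios were 414 (177 to 1277) at 3 h and 816 (349 to 2515) at 24 h.

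COR28 shared the near absence before cold. Among libraries of the same genotype and number, its level was higher at 3 h than at 24 h except in wild type replicate 2. Normalized reads at 0 h were 3.28 and 2.17 in wild type, from 3 and 2 reads, and 7.24 and 5.68 in cbfs-1, from 7 and 6 reads. The 3 h libraries had 2631 and 597 in wild type and 3053 and 843 in cbfs-1. The 24 h libraries had 1464 and 629 in wild type and 1167 and 667 in cbfs-1. As with COR27, the cold libraries all stood above the libraries before cold, and replicate 1 was the higher of its pair in each cold group.

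Mean levels of COR28 in wild type were 2.72 ± 0.782 (SD, n = 2), 1614 ± 1438 and 1046 ± 591 normalized reads at 0, 3 and 24 h. The cbfs-1 means were 6.46 ± 1.1, 1948 ± 1563 and 917 ± 354. The log2 difference from 0 h was 8.41 ± 0.75 (SE) at 3 h and 8.03 at 24 h in wild type, ranks 6 and 3 from the top of 20666 genes. In cbfs-1 it was 7.76 at 3 h and 6.90 at 24 h, ranks 10 and 4, with the same SE. Summed reads gave ratios of 539 (exact 95% interval 231 to 1662) and 378 (162 to 1166) in wild type, and of 299 (175 to 563) and 139 (81.3 to 262) in cbfs-1.

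Libraries in the cold and before cold did not overlap for either gene, in either genotype and at either time. Among all genes tested, such separation with the cold libraries higher was common: 24.6% of genes at 3 h and 38.4% at 24 h in wild type, and 24.8% and 38.8% in cbfs-1. From 3 h to 24 h, COR27 was higher without overlap in wild type, by 1.58 on the log2 scale, where 35.6% of genes were likewise separated upwards. In cbfs-1 the log2 difference was 1.29 and the libraries overlapped. COR28 differed by -0.38 in wild type and -0.86 in cbfs-1 between 3 h and 24 h, with overlapping libraries in both. Against 3 h replicate 2 alone the wild type difference of COR28 became 0.68, and against 3 h replicate 1 alone -1.45. The corresponding values in cbfs-1 were 0.07 and -1.79. For COR27 the difference was 2.69 and 0.47 in wild type and 2.32 and 0.26 in cbfs-1.

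**Figure D1:**
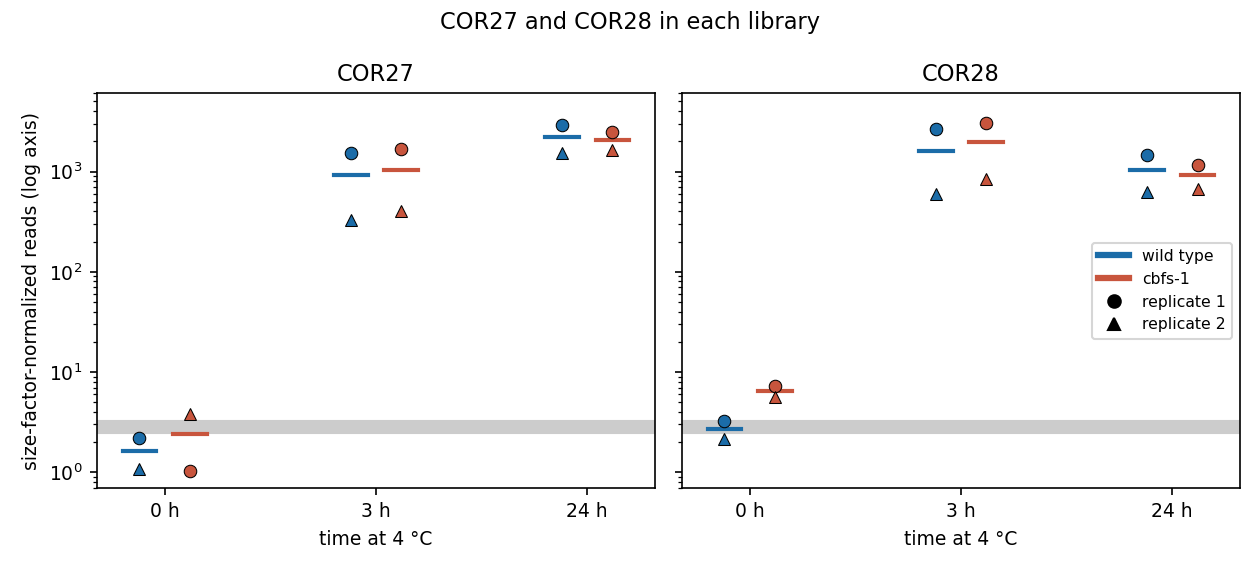
Size-factor-normalized reads (log axis) of COR27 and COR28 in each of the 12 libraries by time at 4 °C, with circles for replicate 1, triangles for replicate 2, short lines for group means and a grey band for the value of 3 reads. All cold libraries lie between 326 and 3053, while the libraries at 0 h lie between 1.03 and 7.24.

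The balance between the 2 genes turned over between 3 h and 24 h, and all libraries of a time lay on the same side. Within a library the ratio of COR28 to COR27 does not depend on the library scaling. Per kilobase of exon (1417 bases for COR27 and 1706 for COR28), COR28 exceeded COR27 by a ratio of 1.44 and 1.52 in the wild type libraries at 3 h and of 1.52 and 1.74 in cbfs-1. At 24 h the ratio was 0.419 and 0.341 in wild type and 0.391 and 0.340 in cbfs-1. The 3 h and 24 h libraries did not overlap, and the genotypes lay side by side at each time. Without correction for length, the log2 ratio ranged from 0.79 to 1.07 over the 4 libraries at 3 h and from -1.29 to -0.99 over the 4 at 24 h. Thus the replicates of a group, which differed by up to 4.66-fold in level at 3 h, differed far less in this ratio. At 0 h both genes were too close to the floor for a ratio to be read.

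**Figure D2:**
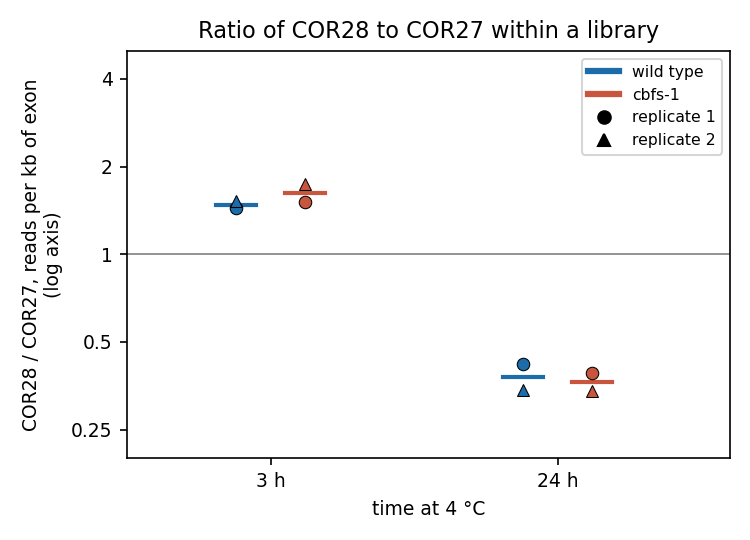
Ratio of COR28 to COR27 reads per kilobase of exon (log axis) in each library at 3 h and 24 h, with circles for replicate 1, triangles for replicate 2 and short lines for geometric means. The 4 libraries at 3 h lie between 1.44 and 1.74 and the 4 at 24 h between 0.340 and 0.419.

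In the cold, levels in cbfs-1 were 0.797 to 1.41 times those in wild type among libraries of the same number. The SEs below are too wide to show that the genotypes were alike. For COR27 the cbfs-1 level minus that of wild type was 0.22 ± 0.81 (log2, SE) at 3 h and -0.07 ± 0.81 at 24 h. For COR28 it was 0.36 ± 0.75 at 3 h and -0.12 ± 0.75 at 24 h. The libraries of the genotypes overlapped for both genes at both times. Among libraries of the same number, cbfs-1 had 1.1 and 1.23 times the COR27 level of wild type at 3 h, and 1.16 and 1.41 times its COR28 level. At 24 h these ratios were 0.855 and 1.06 for COR27 and 0.797 and 1.06 for COR28. The 4 ratios at 3 h all lay above 1, and those at 24 h lay on both sides of it. The SE above includes the difference between replicate numbers. With the replicate number as a block over all 12 libraries, those at 24 h included, it was 0.66 for COR27 and 0.40 for COR28. This SE pools the spread of all 12 libraries, those near the floor at 0 h included, and does not measure the spread at 3 h alone. Without the block, leaving out 1 library at a time moved the genotype difference across 0 for both genes at both times. At 3 h it ranged from -0.89 to 1.33 for COR27 and from -0.71 to 1.43 for COR28. Leaving out 1 library unbalances the replicate numbers, so these ranges include the difference between them. They do not measure the spread of the genotype difference itself.

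Before cold, COR28 was higher in both cbfs-1 libraries than in both wild type libraries, as 13.8% of all genes were. This rests on 13 reads against 5, a ratio of 2.36 (exact 95% interval 0.790 to 8.46, counting error only). For COR27 the reads were 5 against 3, a ratio of 1.51 (0.294 to 9.75), and the libraries overlapped. The values at 0 h are near the floor, and no difference is read from them.

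The replicates at 3 h differed more for COR27 and COR28 than for nearly all other genes, and by similar amounts in both genotypes. COR27 was 4.66-fold higher in replicate 1 than in replicate 2 in wild type and 4.17-fold higher in cbfs-1. COR28 was 4.41-fold and 3.62-fold higher. Of the 20666 genes tested, 31 differed as much as COR27 in wild type (0.150%) and 31 in cbfs-1, 42 as much as COR28 in wild type (0.203%) and 56 in cbfs-1 (0.271%). The median absolute difference over all genes was 0.19 in wild type and 0.18 in cbfs-1 (log2). At 24 h replicate 1 was above replicate 2 by 1.89-fold and 1.52-fold for COR27 and by 2.33-fold and 1.75-fold for COR28, in wild type and cbfs-1. The labels do not say what the replicates of a number share.

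Clock genes were apart in the same 3 h libraries. Of 14 clock genes of day and evening, 11 were higher in replicate 1 in both genotypes, as were 34.4% of all genes. Of these, 5 were higher by at least 2-fold, a size reached upwards by 0.527% of all genes. The 5 are PRR3, ELF4, GI, LUX and FKF1. GI, a clock protein that links the clock to flowering, had 4684 and 2032 normalized reads in wild type and 4671 and 2149 in cbfs-1. All 7 members used of the CCA1, LHY and RVE family were lower in replicate 1 in both genotypes, as were 38.1% of all genes. RVE3, RVE5 and RVE6 were in the expression table but were not examined. Of the 7, 4 were lower by at least 2-fold, against 0.673% of all genes. LHY, a morning repressor, had 776 and 5044 in wild type and 873 and 5092 in cbfs-1, and its partner CCA1 had 2235 and 6721, and 2392 and 6326. LHY was also lower in replicate 1 at 0 h, with 1592 against 7923 in wild type and 1639 against 7514 in cbfs-1. At 24 h its replicates were close, with 2700 and 2337 in wild type and 2375 and 2088 in cbfs-1. The 4 LNK coactivators and the 5 COP1 and SPA genes were all lower in replicate 1 at 3 h in both genotypes, 1 LNK gene and 0 COP1 and SPA genes by at least 2-fold. The part of these clock gene differences in the levels of COR27 and COR28 was not tested.

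**Figure D3:**
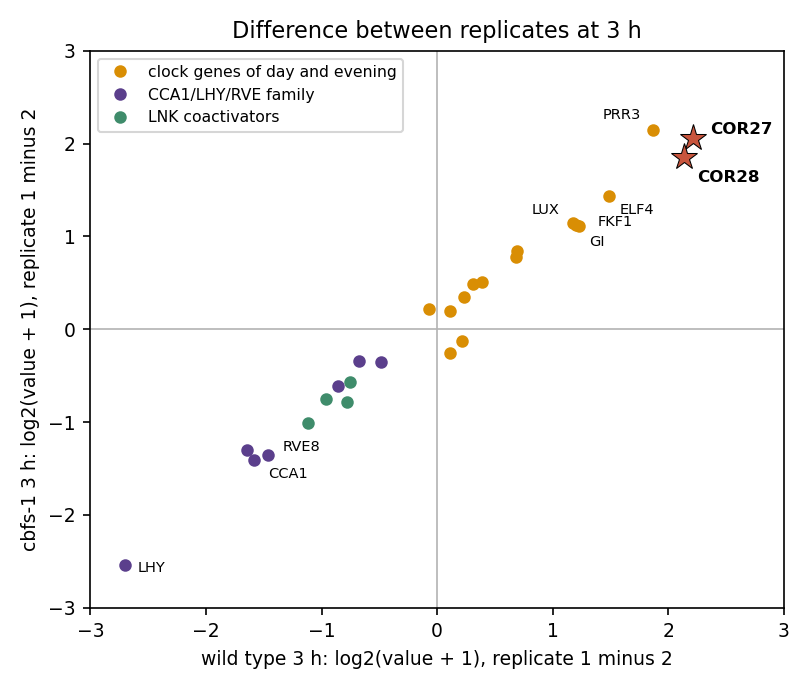
Difference between replicate 1 and replicate 2 at 3 h on the log2(value + 1) scale in wild type (horizontal) and cbfs-1 (vertical), for COR27 and COR28 (stars), 14 clock genes of day and evening, 7 CCA1/LHY/RVE genes and 4 LNK genes. COR27 lies at 2.22 and 2.06 and COR28 at 2.14 and 1.86, with LHY at the opposite corner.

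The genes nearest to COR27 and COR28 in profile were sought among 16005 genes whose highest group mean was at least 100. Likeness was the root mean square difference of log2(value + 1) profiles over the 12 libraries, each centred on its own mean. The points share libraries, and the large step from 0 h to the cold dominates the measure. COR27 was nearest to COR28 (1.04), then to FKF1 (1.22), PRR5 (1.50), AT5G62360 (1.72) and AT1G11210 (1.80). COR28 was nearest to FKF1 (0.625), PRR5 (0.739), AT5G62360 (0.897), AT1G11210 (0.941) and AT4G18422 (1.01), and COR27 came 6th at 1.04.

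FKF1 is a blue-light receptor and F-box protein of the afternoon that acts with GI in flowering. It had 10.9 and 3.25 normalized reads before cold in wild type, 5505 and 2347 after 3 h, and 2214 and 1239 after 24 h. PRR5, a clock repressor of the PRR family, had 63.3 and 39.1, then 10904 and 8305, then 5249 and 3564 normalized reads in wild type. Both had lower means at 24 h than at 3 h in each genotype. In cbfs-1 FKF1 had 5790 and 2678 normalized reads after 3 h and 2136 and 1350 after 24 h. PRR5 had 11265 and 7909, then 5089 and 3384, in the same libraries. COR27 was higher in both 24 h libraries of wild type than in both at 3 h, as 35.6% of all genes were. In cbfs-1 its libraries overlapped. Between libraries that share only a number, the ratio of 24 h to 3 h for COR27 was 1.91 and 4.70 in wild type and 1.48 and 4.05 in cbfs-1. COR28 had ratios of 0.557 and 1.05 in wild type and 0.382 and 0.791 in cbfs-1. AT5G62360 is annotated in RefSeq as a protein of the plant invertase and pectin methylesterase inhibitor superfamily, AT1G11210 as a putative cotton fiber protein, and AT4G18422 as uncharacterized. AT5G62360 had 1512 and 704 normalized reads in wild type at 24 h and 647 and 362 in cbfs-1. COR28 had 1464 and 629, and 1167 and 667, in the same libraries. With profiles scaled to unit variance, 0 of the 5 genes nearest to COR27 and 1 of the 5 nearest to COR28 (FKF1) remained, and TOC1 became the gene nearest to COR27.

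**Figure D4:**
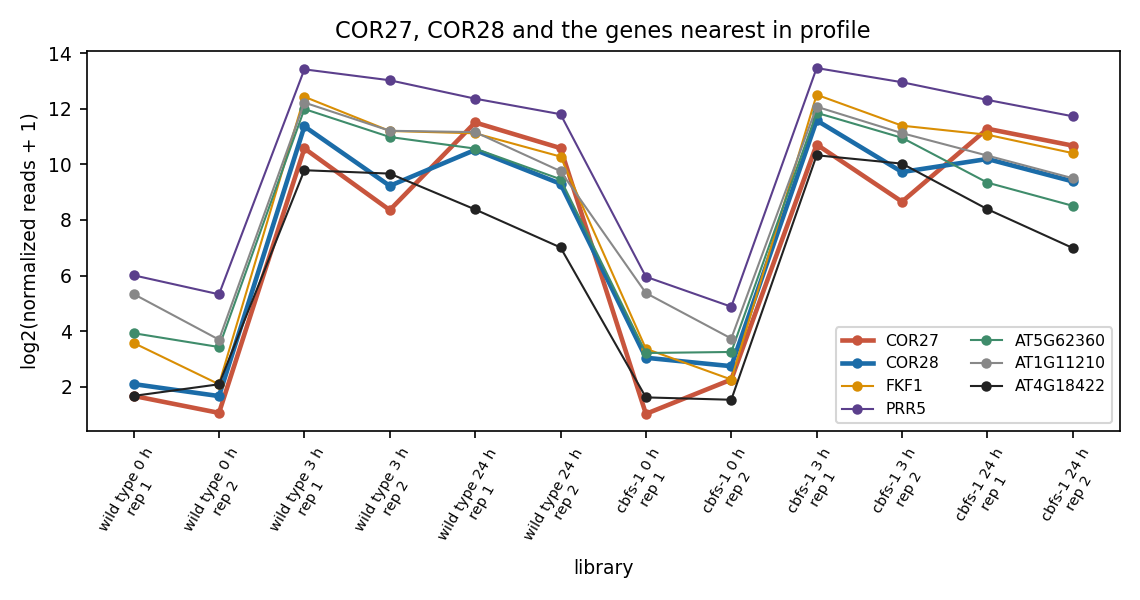
Levels of COR27 and COR28 (thick lines) and of FKF1, PRR5, AT5G62360, AT1G11210 and AT4G18422 as log2(normalized reads + 1) in each of the 12 libraries, by group and replicate; lines only connect the points of a gene. All 7 genes are low at 0 h, and COR27 is the 1 whose group mean at 24 h exceeds that at 3 h in both genotypes.

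The pathway around COR27 and COR28 was described with lists of 51 genes tested by limma on log2(value + 1), with Benjamini-Hochberg adjustment over all 20666 genes. The clock genes of day and evening, which include the targets PRR5 and TOC1, were higher in the cold as a group. In wild type 9 of 14 rose at 3 h and 12 at 24 h, and 0 fell, against 6.89% and 25.7% of all genes called higher. In cbfs-1 10 rose at 3 h and 12 at 24 h, with 0 falling, against 6.43% and 24.9% of all genes. The median change over the 14 genes was 1.49 and 2.00 (log2) in wild type, beside -0.02 and -0.003 over all genes, and 1.67 and 2.1 in cbfs-1. Leaving out 1 library at a time left 7 to 10 clock genes higher at 3 h in each genotype, and the replicate block left 10.

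PRR5 rose by 7.55 ± 0.38 (log2, SE) at 3 h in wild type (limma adjusted p = 1.57e-05) and by 6.41 at 24 h. FKF1 rose by 8.98 ± 0.62 (limma adjusted p = 5.01e-05) and 7.86. ELF4 and LUX, members of the evening complex that represses growth genes at night, rose by 3.92 and 3.31 at 3 h in wild type and by 4.33 and 2.00 at 24 h. TOC1, the evening repressor of CCA1 and LHY, had 347 and 352 normalized reads before cold in wild type, 2384 and 1473 after 3 h, and 3853 and 3028 after 24 h. Its change was 2.42 ± 0.27 at 3 h (limma adjusted p = 0.000659) and 3.29 at 24 h, and in cbfs-1 it was 2.62 and 3.20. TOC1 and COR27 thus both had their higher means at 24 h, while PRR5 and COR28 had theirs at 3 h. PRR3 passed the test at 24 h with a rise of 4.23 in wild type and 3.41 in cbfs-1. GI rose by 2.08 at 3 h in wild type, a call that was lost without wild type 0 h replicate 2 or wild type 3 h replicate 1. The same held in cbfs-1, where GI rose by 2.19 and the call was lost without cbfs-1 0 h replicate 2 or cbfs-1 3 h replicate 1.

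On the morning side, 1 of 7 genes of the CCA1, LHY and RVE family passed at 3 h in each genotype, where 6.89% of all genes were called higher and 3.21% lower in wild type. It was RVE2, with a rise of 4.55 in wild type and 4.77 in cbfs-1. RVE2 also rose at 24 h, by 3.53 and 3.16. RVE8, an activator of evening genes, fell by 1.87 at 24 h in cbfs-1 and differed by -1.43 in wild type without passing the test (limma adjusted p = 0.0752). The cbfs-1 call was lost without cbfs-1 0 h replicate 2, 24 h replicate 1 or 24 h replicate 2. CCA1 and LHY passed in no cold comparison, with their replicates at 0 h and 3 h far apart. With the replicate number as a block, RVE1 also passed at 3 h in both genotypes (limma adjusted p = 0.0293 in wild type and 0.0180 in cbfs-1), so that 2 of 7 genes were called. Of the 4 LNK coactivators, which work with RVE8, 0 passed at 3 h. LNK2 fell at 24 h, with a log2 change of -1.39 in wild type and -1.44 in cbfs-1. At 24 h 24.3% of all genes were called lower in wild type and 23.3% in cbfs-1. These LNK2 calls were lost without 0 h replicate 2 of the genotype concerned.

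The light signalling partners follow. Of the 5 COP1 and SPA genes, 0 passed at 3 h. At 24 h, where 25.7% of all genes were called higher in wild type and 24.9% in cbfs-1, SPA1 rose by 0.42 and 0.36. The cbfs-1 call was lost without cbfs-1 24 h replicate 1. In cbfs-1 the block added SPA1 at 3 h (limma adjusted p = 0.0269). HY5, the light-promoting factor described to interact with both proteins, had 260 and 472 normalized reads before cold in wild type, 172 and 270 after 3 h, and 358 and 387 after 24 h. It passed in no cold comparison without the block, and in cbfs-1 at 3 h with it, at a change of -0.80 (limma adjusted p = 0.0425). At 24 h 4 PIF genes, which promote growth in the dark and in warmth, fell in both genotypes. Of all genes, 24.3% were called lower at 24 h in wild type and 23.3% in cbfs-1. In wild type the log2 change was -1.79 for PIF4, -1.72 for PIF1, -1.4 for PIF5 and -0.64 for PIF3. PIF7 rose by 0.53. In wild type the PIF3 call was lost without 0 h replicate 1, 24 h replicate 2 or cbfs-1 24 h replicate 1, and the PIF7 call without 24 h replicate 1. With the block PIF5 fell at 3 h as well, in both genotypes (limma adjusted p = 0.0306 in wild type and 0.0203 in cbfs-1).

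Of 7 light receptors, PHYA rose by 0.56 and PHYB fell by 0.41 at 3 h in wild type. Both calls were lost without wild type 0 h replicate 2 or wild type 3 h replicate 1. In cbfs-1 PHYA rose by 0.54 at 3 h, a call lost without any 1 of cbfs-1 0 h replicates 1 and 2, 3 h replicate 1 and 24 h replicates 1 and 2. The replicate block added PHYC in wild type (-0.28, limma adjusted p = 0.0476) and PHYB in cbfs-1 (-0.29, limma adjusted p = 0.0306), both lower at 3 h. At 24 h PHYA, PHYB and CRY1 fell in wild type, with changes of -0.54, -0.38 and -0.54, and in cbfs-1 4 receptors fell and 1, PHYD, rose. The wild type calls were lost without 0 h replicate 1 (PHYA and CRY1), 0 h replicate 2 (PHYB) or 24 h replicate 1 (CRY1). In cbfs-1 the PHYA call was lost without 0 h replicate 1. The PHYC call was lost in 9 settings, which were DESeq2 and 8 that each left out 1 library (all of 0 h in both genotypes, of wild type at 3 h and of cbfs-1 at 24 h). The 4 flowering genes all rose at 24 h in wild type: CO by 2.37, SOC1 by 1.84, FT by 1.54 and the repressor FLC by 0.69. In cbfs-1 CO and SOC1 rose, by 2.49 and 1.50. The FT call was lost without wild type 0 h replicate 2 or 24 h replicate 2, and the FLC call without wild type 0 h replicate 2. SOC1 also rose at 3 h, by 1.20 in wild type and 1.28 in cbfs-1, and either call was lost without 0 h replicate 2 or 3 h replicate 1 of its genotype. Calls higher at 3 h covered 6.89% of all genes in wild type and 6.43% in cbfs-1, and at 24 h 25.7% and 24.9%. Calls lower at 3 h covered 3.21% of all genes in wild type and 2.41% in cbfs-1, and at 24 h 24.3% and 23.3%. Leaf and root markers also fell at 24 h, 3 of 5 leaf markers and 4 of 5 root markers in each genotype, and their part in the levels of COR27 and COR28 was not tested.

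All 3 CBF genes rose at 3 h and at 24 h against 0 h in both genotypes, where 6.89% and 25.7% of all genes were called higher in wild type and 6.43% and 24.9% in cbfs-1. Their levels in wild type were lower at 24 h than at 3 h, at 69.8 and 22.4 normalized reads for CBF1, 569 and 239 for CBF2 and 404 and 180 for CBF3. In cbfs-1 at 24 h they were 78.7 and 38.1, 941 and 448, and 893 and 799. In cbfs-1 CBF1 still had 1540 and 2475 normalized reads at 3 h, beside 1129 and 2023 in wild type. CBF2 had 7570 and 8377, beside 5093 and 6769. CBF3 stood apart, with 1158 and 1095 in cbfs-1 at 3 h against 6133 and 7126 in wild type. At 0 h CBF3 had 175 and 138 in cbfs-1 against 15.3 and 7.59. The labels do not give the lesion, so these reads do not show whether the proteins were made, and counts of these near-identical neighbours may be mixed. CBF3 at 0 h, higher by 3.72 ± 0.36 (limma adjusted p = 0.00785), was the only 1 of the 51 list genes called between genotypes, where 0.0387% of all genes were called. It was lost without wild type 0 h replicate 2 and without either cbfs-1 0 h library. At 3 h 0 list genes passed in limma, where 0.0290% of all genes were called (2 list genes had an unadjusted p below 0.05). CBF3 itself differed there by -2.55 (limma adjusted p = 0.0906) and passed with the block (limma adjusted p = 0.0110), in edgeR and in DESeq2. At 24 h 0 passed, where 0.808% of all genes were called (7 list genes had an unadjusted p below 0.05). The calls were 0 in edgeR and 1, CBF3, in DESeq2. At 24 h the block, although the numbers were not taken as pairs there, called 3 (CBF3, CRY2 and PIF3), and a fit of only the groups compared called 2 (CRY2 and SOC1). For the genotype difference of the 24 h response the list again gave 0 calls in limma, where 0.00968% of all genes were called. Of the list genes, 3 had an unadjusted p below 0.05. The calls were 0 in edgeR and 1, CBF3, in DESeq2. These shares of all genes are at an adjusted p below 0.05. The share at an unadjusted p is not given, so nothing is read from the unadjusted counts.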

How the data were processed

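RNA sequencing values of 12 libraries were used. The deposited table holds signal values, which per the file header and the values are gene read counts divided by 1 DESeq2 size factor per library. The submitters' processing notes list the build TAIR10 and the tools HTSeq 0.6.0, TopHat2 2.1.0, DESeq2 and Cufflinks 2.2.1. Which tool made which step, whether libraries were stranded and how shared reads were counted was not given in the sources used here. All values were whole multiples of 1 step per library (100% within a tolerance of 0.001), and division gave back whole reads. Read totals are given in the text, and intervals and floors (3 reads) cover counting error only.

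The members and lists were chosen with earlier results of these data known. COR27 and COR28 carry no test. Other genes were tested with limma 3.58.1 (trend; R 4.3.3), on log2(value + 1), keeping 20666 genes that reached a value of 10 in 2 or more libraries, with 6 group means and 6 residual degrees of freedom. Calls were made at an adjusted p below 0.05 (Benjamini-Hochberg, per comparison). A fold change on this scale understates the change of low genes. No label states that replicates are separate cultures. The p-values therefore reflect the spread among these libraries alone, possibly technical. Across genes, libraries sharing a replicate number deviated together from their group means at 0 h and 3 h, with correlations of 0.334 to 0.565 for all 6 pairs of groups. On this ground, which is not in the labels, the numbers were treated as pairs there, and blocked values stand beside 0 h and 3 h results where a call changes. Pairs with 24 h groups correlated at 0.0428 to 0.242 and were not taken as pairs. The block itself, however, was 1 offset per gene shared by all 12 libraries, those at 24 h included. Blocked SEs and calls at 0 h and 3 h therefore rest on an offset also applied at 24 h, where these correlations are low.

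Named genes are COR27, COR28, the CBF genes, up to 4 called members per list and comparison by size, and the 5 nearest profiles. HY5, CCA1, LHY, TOC1, GI, RVE1, RVE8, PRR3, PIF7 and PHYC, where they were not among these, were chosen after their values were seen. So were the replicate differences at 3 h and the stretch downstream of the starts. Of 69 planned list and marker genes 66 were used, and RVE3, RVE5 and RVE6 were left out because symbol and locus were not paired in the annotation. Gene models and sequence are from RefSeq, TAIR10.1, and the bases before the start of COR27 are not reported here. The deposited table carries no coordinates, so no builds were mixed. Alternatives were other pseudocounts (0.5 and 5), no filter, a replicate block, fewer libraries, TMM scaling, edgeR 4.0.16 and DESeq2 1.42.0 on recovered reads. The limma procedure was tested on simulated data. The simulated libraries carried no difference shared by replicate number, and only genes well above the floor were changed. That test therefore does not cover these conditions of the real libraries. Python 3.11.15, numpy 2.4.6, pandas 2.3.3, scipy 1.17.1 and matplotlib 3.10.9 were used for the rest.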

Additional observations from a re-analysis of the deposited data

Results flagged for a closer look

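The response of CBF3 at 3 h differed between the genotypes. Its log2 response was smaller in cbfs-1, with a difference of -6.28 ± 0.51 (SE, interaction term in limma, adjusted p = 0.00788). CBF3 was higher in cbfs-1 than in wild type in both libraries at 0 h and lower in both at 3 h. The call between genotypes at 0 h, which enters this difference, was lost in 4 settings. Counts of the near-identical CBF genes may be mixed, and the labels do not give the lesion. The share of all genes called for this difference is not given.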

How the results depend on the processing

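Differences of COR27 and COR28 from 0 h kept their direction under every alternative tried for them. With a pseudocount of 5 in place of 1, COR27 differed from 0 h by 6.75 at 3 h and 8.32 at 24 h in wild type and by 6.83 and 8.11 in cbfs-1, and COR28 by 6.97 at 24 h in wild type and 6.28 in cbfs-1, since the counts at 0 h are close to the floor. Leaving out 1 library at a time gave 6.99 to 9.20 (wild type, 3 h), 9.22 to 10.14 (wild type, 24 h), 7.01 to 9.07 (cbfs-1, 3 h) and 8.71 to 9.95 (cbfs-1, 24 h) for COR27, and 7.34 to 9.48, 7.42 to 8.64, 6.83 to 8.69 and 6.49 to 7.30 for COR28. Genotype differences at 24 h ranged from -0.53 to 0.39 and from -0.73 to 0.49. The list genes called numbered 16 at 3 h in each genotype (11 to 17 without 1 library), 30 at 24 h in wild type (26 to 34) and 31 in cbfs-1 (26 to 31). With the replicate block these counts were 20 and 21 at 3 h and 36 and 32 at 24 h. They are out of the full set of list genes, markers left out. Without the block, 6.89% of all genes were called higher and 3.21% lower at 3 h in wild type, and 6.43% and 2.41% in cbfs-1. At 24 h the shares were 25.7% and 24.3% in wild type and 24.9% and 23.3% in cbfs-1, so such calls were common. The share of all genes called with the block is not given, so the blocked counts have no such comparison. Between genotypes at 0 h, where 1 list gene was called, 0 were called with only the groups compared, and 0 to 1 without 1 library. At 3 h, against 0, the count was 1 (CBF3) with the replicate block, with only the groups compared, in edgeR and in DESeq2, and 0 to 1 without 1 library. At 24 h, against 0, it was 3 with the replicate block (CBF3, CRY2 and PIF3), 2 with only the groups compared (CRY2 and SOC1), 1 in DESeq2, and 0 to 1 without 1 library. For the genotype difference of the 24 h response DESeq2 gave 1. Scaled profiles shared 0 (COR27) and 1 (COR28) of the 5 nearest genes, while profiles over group means shared 5 and 5. The cause of these shifts was not tested. Depth limits the 0 h values of COR27 and COR28, and 2 libraries per group limit the rest.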
